A study of Mus musculus with 8 samples.

Results

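The 9 genes described here encode the proteins that move calcium in and out of the cytosol of heart muscle cells at each beat: Ryr2, Casq2, Trdn and Jph2 of the release unit, Cacna1c of calcium entry, Atp2a2, Pln and Sln of reuptake, and Slc8a1 of extrusion. They were chosen by name, as 9 of the 38293 gene identifiers in the count table, and all 9 had enough counts to be tested. Polyadenylated RNA came from left ventricles of C57BL/6J mice, harvested 3 days after ischemia-reperfusion, an operation that ties off a coronary artery (the LAD) and lets the blood back in. In 4 libraries, called antimiR-195, the 2 intramyocardial injections of 10 µl of Upy-PEG, a polymer hydrogel used as a drug depot, carried antimiR-195, which blocks the microRNA miR-195. In the other 4, called Upy-PEG, hearts injured in the same way received the hydrogel with no drug. All 8 therefore share the injury, the operation and the gel, and the groups differ in the drug. No age is given in the labels, nor whether each library is a separate animal or how much of the injured area each ventricle sample held. The p-values below thus measure the spread between these libraries.

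A heartbeat starts when the L-type calcium channel, whose pore is encoded by Cacna1c, lets in a little calcium next to the sarcoplasmic reticulum. That calcium opens the ryanodine receptor (Ryr2), which releases the store held by calsequestrin (Casq2), anchored through triadin (Trdn) at junctions built by junctophilin (Jph2). The muscle relaxes as the pump SERCA2 (Atp2a2), restrained by phospholamban (Pln) in the ventricle and by sarcolipin (Sln) mainly in the atria, returns calcium to the store, and the sodium-calcium exchanger (Slc8a1) removes the rest from the cell. The proportion of phospholamban to the pump is known to set how fast the heart relaxes.

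Each library held between 16872968 and 22751753 counts in genes. One library stood apart: in antimiR-195 replicate 2, lines for reads aligned to more than 1 place made up 47.8% of all lines, against 42.1% to 44.5% in the other 7, and long transcripts were under-represented, as measured below. CPM is a gene's count relative to the normalized total of its library. Log2 fold changes of named genes that moved by more than 0.1 without it are given both ways.

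Because the drug blocks miR-195, the sequence of that microRNA and its matches in the 9 transcripts are given first. The capitals mark the seed, bases 2 to 8 from the 5′ end, which is the part that selects targets. MiR-195a lies on chromosome 11 at chr11:70235062-70235082 (GRCm38.p6, plus strand, RefSeq), and the others shown, miR-497a next to it on the same chromosome and miR-15a, miR-15b and miR-16, carry the same seed.
miR-195a-5p: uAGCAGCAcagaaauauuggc
miR-497a-5p: cAGCAGCAcacugugguuugua
miR-15a-5p: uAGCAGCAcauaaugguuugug
miR-15b-5p: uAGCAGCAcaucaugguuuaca
miR-16-5p: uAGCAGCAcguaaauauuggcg

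Seed matches of 7 or more bases were searched in the longest annotated 3′ UTR of each gene (GENCODE M21, GRCm38), as TGCTGCT, which pairs with bases 2 to 8 and may be followed by an A, or as GCTGCTA, which pairs with bases 2 to 7 and ends in that A, on the transcript strand. Of the 9 genes, 2 held a match, 1 each, where 28.5% of 12874 tested genes with a 3′ UTR did. The match in Sln lies at chr9:53853638-53853644 on the plus strand, and the match in Cacna1c at chr6:118587728-118587734 on the minus strand. Both are matches to bases 2 to 8 with no A opposite base 1. They are shown with their neighbours, the match in capitals.
Sln: tctattgtcatgagaTGCTGCTtctggct
Cacna1c: gagtgctgcaatgtcTGCTGCTctcagaa
The 3′ UTR of Slc8a1, the longest of the 9 at 15586 bases, held none of these words, nor did the 1965 bases of Pln or the 811 bases of Atp2a2. Neither gene with a match was past the threshold in the comparison below: Cacna1c was at a log2 fold change of 0.01 ± 0.24 and Sln at 0.42 ± 0.87 (± standard error, SE).

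Per length of transcript, phospholamban was the most abundant of the 9 in every library. RPKM, the authors' value per length of gene model and sequencing depth, averaged 2389 ± 317 for Pln in antimiR-195 and 2619 ± 194 in Upy-PEG (SD, n = 4 each). For the pump gene Atp2a2 it averaged 1903 ± 488 RPKM in antimiR-195 and 2024 ± 130 RPKM in Upy-PEG. Calsequestrin came next, with Casq2 at 282 ± 22.2 RPKM in antimiR-195 and 286 ± 28.8 RPKM in Upy-PEG. Below it, over all 8 libraries, lay Jph2 at a mean of 85.5 RPKM, Ryr2 at 59.0, Trdn at 53.8, Slc8a1 at 22.2 and Cacna1c at 17.1. Sln was last at 2.84 RPKM. The order of Pln, Atp2a2 and Casq2 was the same in all 8 libraries. Jph2, Ryr2 and Trdn exchanged places between libraries, and so did Slc8a1 and Cacna1c. In whole tissue, fewer cells of a type and less RNA per cell cannot be told apart. These levels rest on the authors' gene models, which differ from GENCODE M21 for some members. The model of Slc8a1 held 2934 bases against 18807 bases of M21 exons, that of Cacna1c 8372 against 21191, and that of Ryr2 16849 against 28790. That of Trdn held 4514 against 9352, that of Sln 515 against 1318, that of Atp2a2 5293 against 6081 and that of Pln 2480 against 2759. Those of Casq2 (2736) and Jph2 (4255) were the same in both.

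The release channel gene Ryr2 (chromosome 13, 11553102 to 12106945, minus strand, GRCm38 here and below) differed more among the antimiR-195 libraries than between the groups. It had 827, 498, 1567 and 1131 CPM in antimiR-195 replicates 1 to 4, against 976, 1095, 771 and 1105 CPM in Upy-PEG replicates 1 to 4. The lowest and the highest library both carried antimiR-195, and the Upy-PEG libraries lay between them. The log2 fold change of antimiR-195 over Upy-PEG was 0.03 ± 0.29, with a 95% interval from -0.62 to 0.67, and edgeR gave an adjusted p of 0.9999.

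Casq2 (chromosome 3, 102086415 to 102146514), the calcium buffer of the store, was among the steadiest members. Its CPM were 780.5, 659, 825 and 798 in antimiR-195 replicates 1 to 4, against 711, 898, 760.0 and 795 in Upy-PEG replicates 1 to 4. The groups overlapped throughout, with a log2 fold change of -0.05 ± 0.13 and a 95% interval from -0.33 to 0.24.

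Trdn (chromosome 10, 33080554 to 33476709), which ties calsequestrin to the release channel, came closest to a separation of the groups. The antimiR-195 libraries had 253, 274, 247 and 252 CPM, against 215, 233, 257 and 212 CPM in Upy-PEG. Upy-PEG replicate 3 was above 3 of the 4 antimiR-195 libraries, so the groups overlapped by that library alone. The log2 fold change was 0.16 ± 0.11 with a 95% interval from -0.08 to 0.41, and edgeR gave an unadjusted p of 0.173 and an adjusted p of 0.9999. Trdn was also the only one of the 9 that was highest in antimiR-195 replicate 2.

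Jph2 (chromosome 2, 163336242 to 163397993), which holds the junction between plasma membrane and store together, had 345, 249, 378 and 414 CPM in antimiR-195, against 334, 424, 415 and 359 CPM in Upy-PEG. Only antimiR-195 replicate 2 fell outside the range of the Upy-PEG libraries. Its log2 fold change was -0.15 ± 0.17, and -0.03 without that library.

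Cacna1c (chromosome 6, 118587240 to 119196418), the pore of the L-type channel through which calcium enters, had 124, 83.8, 206 and 163 CPM in antimiR-195, against 147, 153, 117 and 155 CPM in Upy-PEG. As for Ryr2, the antimiR-195 group held both the lowest and the highest library. The group means were 144 ± 52.4 CPM in antimiR-195 and 143 ± 17.5 CPM in Upy-PEG (SD, n = 4 each), and the 95% interval of the log2 fold change of 0.01 ran from -0.51 to 0.53. Without antimiR-195 replicate 2 the fold change was 0.19, and without replicate 3 it was -0.21.

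The pump gene Atp2a2 (chromosome 5, 122453513 to 122502225) had 9822, 6218, 12279 and 11761 CPM in antimiR-195, against 11176, 11657, 10672 and 9788 CPM in Upy-PEG. Among the antimiR-195 libraries, replicate 1 lay within the Upy-PEG range, replicates 3 and 4 just above it and replicate 2 far below it. The log2 fold change was -0.11 ± 0.21, with a 95% interval from -0.58 to 0.35, and it was 0.05 without antimiR-195 replicate 2.

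Pln (chromosome 10, 53337667 to 53345987), the pump's inhibitor, had 6168, 4583, 6434 and 6331 CPM in antimiR-195, against 6751, 6870, 7043 and 5612 CPM in Upy-PEG. Again replicate 2 was the lowest of all libraries, and the other antimiR-195 libraries fell within the Upy-PEG range. The fitted log2 fold change was -0.16 ± 0.16 (95% interval -0.51 to 0.19), and -0.07 without antimiR-195 replicate 2.

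Slc8a1 (chromosome 17, 81373105 to 81738377), the exchanger that extrudes calcium, had the widest range of the 8 members detected in every library, 7.04-fold between the highest and the lowest. It had 50.04, 17.05, 120.1 and 79.3 CPM in antimiR-195, against 60.5, 71.8, 41.3 and 81.2 CPM in Upy-PEG. The extremes were antimiR-195 replicates 3 and 2. The log2 fold change was 0.06 ± 0.45, it was 0.38 without replicate 2 and -0.39 without replicate 3. Its 95% interval ran from -0.93 to 1.06, so true changes within those bounds remain compatible with these libraries.

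**Figure D1:**
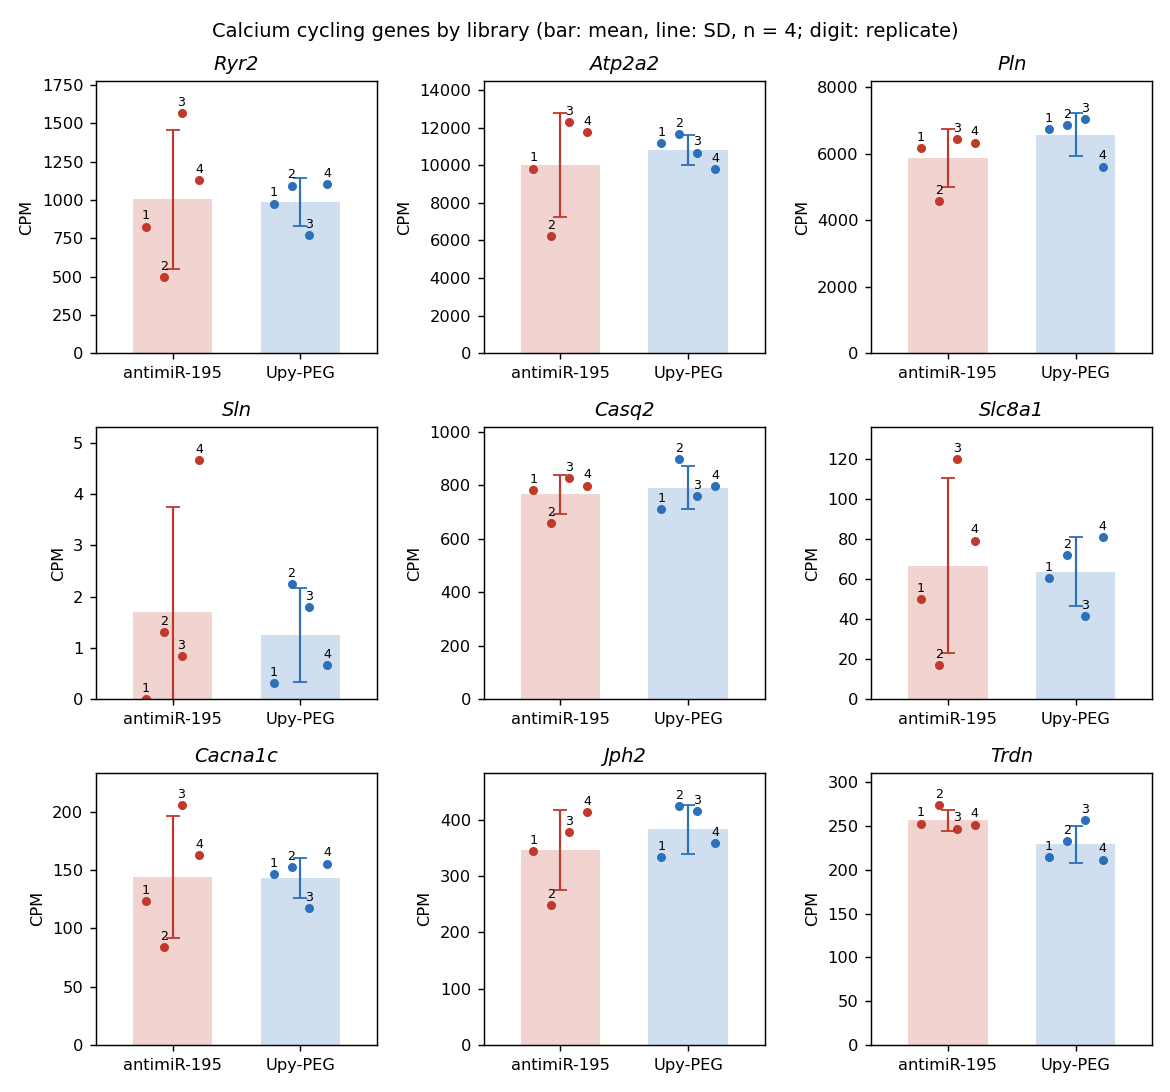
CPM of the 9 calcium cycling genes in each library (vertical axes from 0, 1 panel per gene), with antimiR-195 in red on the left and Upy-PEG in blue on the right; bars are means, lines SD over 4 libraries (cut off at 0 for Sln), and digits replicate numbers. AntimiR-195 replicate 2 was the lowest library for 7 of the 9 genes, and the groups overlapped in all 9. That library was also lowest for 8 of 12 pump regulators, kinases and phosphatases (highest for 3), and for 3 of 14 genes of the release complex and lumen (highest for 7). It was lowest for 5 of 7 L-type channel genes, 3 of 7 dyad and T-tubule genes and 4 of 7 beta-adrenergic genes. The same held for 4 of 9 genes of plasma membrane and mitochondrial transport and 3 of 13 detected paralogs and IP3 receptors. The share over all genes was not counted.

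No difference between antimiR-195 and Upy-PEG in these genes passed the test. Of the 9, 0 were called higher and 0 lower by edgeR (quasi-likelihood, threshold 0.05 on the adjusted p), and 0% of the 13972 genes tested were called. At an unadjusted p below 0.05 there were 0 of the 9, against 1.27% of all genes, or 178. DESeq2 and limma-voom also called 0 genes, with 193 and 170 at an unadjusted p below 0.05. The groups did not overlap in 0 of the 9, against 1.07% of all genes, 0.53% with antimiR-195 higher and 0.544% with antimiR-195 lower. The members' log2 fold changes were positive for 5 and negative for 4, with a median of 0.01, and the median over all genes tested was also 0.01. The intervals bound what could have been missed: for 7 of the 9 they lie within a log2 change of 1 in either direction, the exceptions being Slc8a1 and Sln, whose interval reaches from -1.49 to 2.33.

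**Figure D2:**
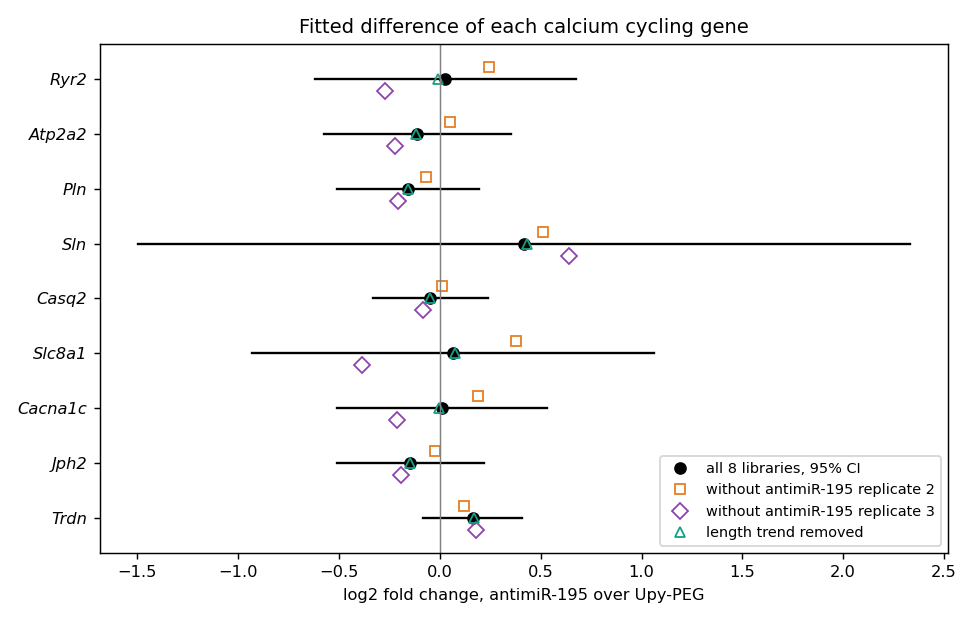
Log2 fold change of antimiR-195 over Upy-PEG for each gene (horizontal axis), with black points and lines for the fit over all 8 libraries and its 95% interval, and open symbols for 3 other fits. All 9 intervals include 0; leaving out antimiR-195 replicate 2 moved Ryr2 to 0.24 and Slc8a1 to 0.38, and leaving out replicate 3 moved them to -0.27 and -0.39.

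The RNA proportion of phospholamban to pump differed between the groups by less than the spread within either. Protein is not part of these data. The RPKM ratio of Pln to Atp2a2 averaged 1.295 ± 0.210 in antimiR-195 and 1.295 ± 0.0803 in Upy-PEG (SD, n = 4 each). By library it was 1.34, 1.57, 1.12 and 1.15 in antimiR-195 replicates 1 to 4, against 1.29, 1.26, 1.41 and 1.22 in Upy-PEG replicates 1 to 4. The highest ratio was that of antimiR-195 replicate 2, in which Atp2a2 was further below the other libraries than Pln, and the lowest that of antimiR-195 replicate 3. These libraries also had the lowest and the highest length slope, measured below. The authors' gene model holds 2480 bases for Pln and 5293 bases for Atp2a2. The difference of mean log2 ratios was -0.01, and the two-sided exact permutation test over the 70 assignments of libraries gave p = 0.943. With the length trend removed the difference was -0.03, and the same exact permutation test gave p = 0.486. The part of the length trend in the spread of the ratio was not tested.

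For 6 further ratios, the same exact permutation test gave p from 0.6 to 1, and over all 7 ratios each adjusted p was 1. The ratio of the exchanger to the pump, Slc8a1 to Atp2a2, averaged 0.0110 ± 0.00533 in antimiR-195 and 0.0107 ± 0.00332 in Upy-PEG. Calsequestrin to release channel, Casq2 to Ryr2, averaged 5.39 ± 2.12 in antimiR-195 and 5.01 ± 0.763 in Upy-PEG. Within antimiR-195 that ratio ran from 3.24 in replicate 3 to 8.15 in replicate 2. Trdn to Ryr2 showed the widest span among the release unit, 0.589 in antimiR-195 replicate 3 and 2.06 in antimiR-195 replicate 2, with 0.715 to 1.25 in Upy-PEG. Replicates 3 and 2 of antimiR-195 had the highest and the lowest length slope. The part of that trend in these spans was not tested. Entry channel to release channel, Cacna1c to Ryr2, was far steadier, at 0.298 ± 0.0309 in antimiR-195 and 0.293 ± 0.0132 in Upy-PEG. The remaining 2, Jph2 to Ryr2 and Sln to Atp2a2, had log2 differences of -0.08 and -0.52. The value for Sln to Atp2a2 was computed with 0.5 added to each count, since Sln had a count of 0 in 1 library, and it was 0.98 without antimiR-195 replicate 1.

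**Figure D3:**
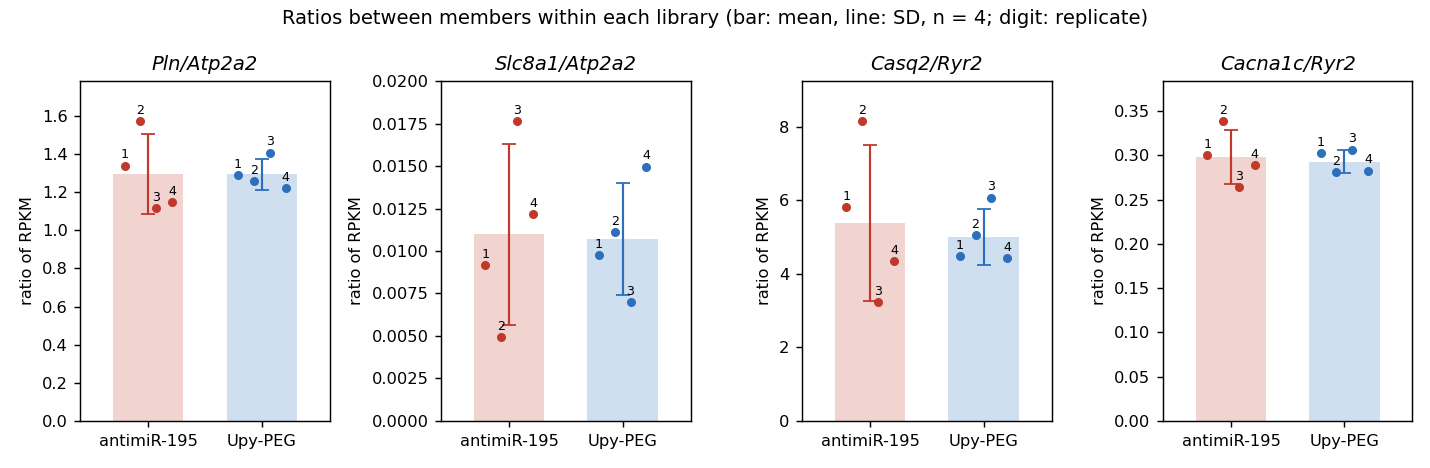
RPKM ratios of 4 pairs of calcium cycling genes within each library (vertical axes from 0), antimiR-195 in red on the left and Upy-PEG in blue on the right, with bars for means, lines for SD and digits for replicate numbers. Pln to Atp2a2 stays between 1.12 and 1.57 in all 8 libraries, and Cacna1c to Ryr2 between 0.264 and 0.339.

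Ryr2 and Cacna1c kept the most constant proportion among the members, and Slc8a1 departed most from the others. The standard deviation over 8 libraries of the log2 ratio of 2 genes measures how far they depart from a fixed proportion. Among the 28 pairs of members other than Sln, it was smallest for Ryr2 and Cacna1c, the release and entry channels, at 0.11, and next for Pln and Jph2 at 0.13. The median pair was at 0.31, Atp2a2 and Pln were at 0.16, and the largest value, 0.93, was that of Slc8a1 and Trdn. Ryr2, Cacna1c and Slc8a1 followed the length slope of the libraries, described below, with Pearson's r of 0.988, 0.981 and 0.992. For Trdn r was -0.531. The part of that slope in these SDs was not tested. Genes outside the members came closer to Ryr2 than Cacna1c did, such as Ppp1r12a at an SD of 0.04.

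The libraries differed in how well long transcripts were represented, and 3 of the members followed that difference closely. For each library, log2 CPM relative to each gene's mean was regressed on log2 gene model length over expressed genes (mean log2 CPM of 0 or more) other than the 9. The slope was -0.03, -0.22, 0.15 and 0.06 log2 units per doubling of length in antimiR-195 replicates 1 to 4, against -0.02, 0.06, -0.08 and 0.08 in Upy-PEG replicates 1 to 4. Slc8a1 was in the same order as the slopes in all 8 libraries (Spearman's rho 1, Pearson's r 0.992). Exact permutation gave it p = 2.48e-05 for r and p = 4.96e-05 for rho, the smallest each can give, or 2.23e-04 and 4.46e-04 adjusted over 9 members. For Ryr2 r was 0.988 and rho 0.976, and for Cacna1c r was 0.981 and rho 0.976, each with an adjusted p of 2.23e-04 for r and 0.00119 for rho in the exact permutation test. Without the 2 libraries farthest from the median slope, antimiR-195 replicates 2 and 3, r was 0.978 for Slc8a1, 0.953 for Ryr2 and 0.909 for Cacna1c. This relation was looked at after the values were seen. The slope is a trend over all expressed genes, and the share of them that follow it as closely was not counted. The relation is therefore not shown to be particular to these members.

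The other members held less closely or not at all. Atp2a2 had r = 0.843 and rho = 0.619 (adjusted p = 0.0341 and 0.172 by exact permutation), and r was 0.195 without the 2 libraries, so the relation rested on them. Casq2 had r = 0.802 and rho = 0.762 (adjusted p = 0.0341 and 0.0827 by exact permutation), and r was 0.577 without them. For Pln, Jph2, Trdn and Sln the adjusted p of r was 0.0983 or above by exact permutation, and r for Trdn was negative, at -0.531. With the length trend removed, the SD of log2 CPM over 8 libraries fell to 0.23 for Ryr2, against 0.49 before, and to 0.24 for Cacna1c, against 0.39 before. That of Slc8a1, whose deposited gene model covers 2934 bases, was 0.87 after and 0.85 before. The SD was also larger after than before for Pln (0.24 and 0.20), Casq2 (0.17 and 0.13) and Trdn (0.16 and 0.13). Among 7301 well-expressed genes (mean log2 CPM 4 or more), the median SD was 0.16 after and 0.20 before. With the trend removed 0 members were called, and the part of RNA quality in these levels was not tested.

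**Figure D4:**
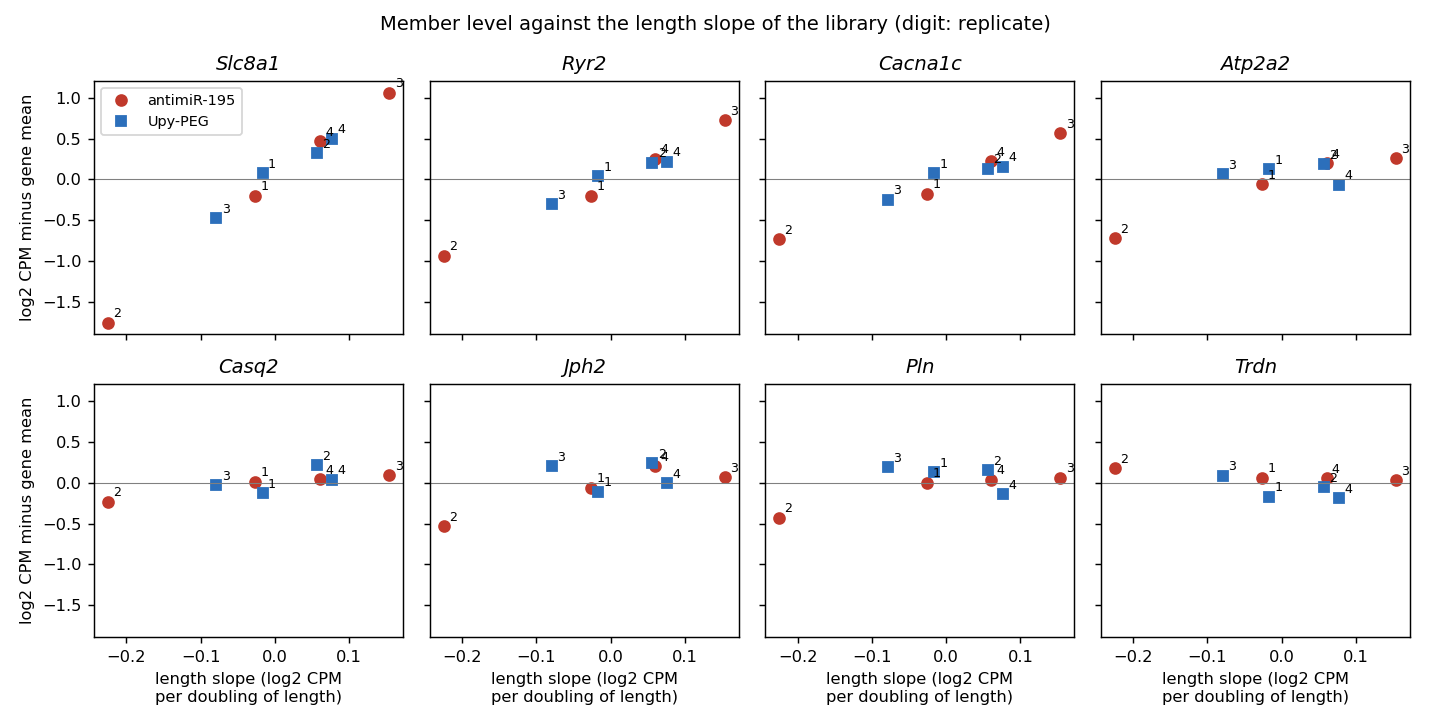
Log2 CPM of 8 members relative to each gene's own mean (vertical axis) against the length slope of each library (horizontal axis, log2 units per doubling of gene model length, genes other than the 9), with antimiR-195 as red circles and Upy-PEG as blue squares, and digits for replicates. Slc8a1, Ryr2 and Cacna1c line up with the slope from antimiR-195 replicate 2 at -0.22 to antimiR-195 replicate 3 at 0.15, whereas Trdn and Pln do not.

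Sarcolipin RNA was scarce and uneven. Sln (chromosome 9, 53850164 to 53854560) had 0, 24, 14 and 82 counts in antimiR-195 replicates 1 to 4, against 6, 46, 39 and 12 in Upy-PEG replicates 1 to 4. In CPM these were 0, 1.31, 0.837 and 4.67 in antimiR-195 and 0.317, 2.25, 1.80 and 0.665 in Upy-PEG. A count of 0 in antimiR-195 replicate 1 allows a level of up to 0.168 CPM, from counting error only. The log2 fold change of 0.42 ± 0.87 was -0.82 without antimiR-195 replicate 4, the library with the most counts.

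Sln moved with the atrial myosin light chains. Myl7, which marks atrial muscle, had 0.224, 9.67, 2.69 and 13.7 CPM in antimiR-195, against 2.01, 12.0, 10.2 and 3.66 CPM in Upy-PEG. Over the 8 libraries, on log2(CPM + 0.5), Sln and Myl7 had r = 0.934 and rho = 0.976, with exact permutation p adjusted over 5 atrial genes of 0.00186 and 0.00198. For Myl4, the other atrial light chain, r was 0.915 and rho 0.857 (adjusted p = 0.00527 and 0.0268 by exact permutation). Without the 2 libraries farthest from the median, r was 0.847 for Myl7 and 0.868 for Myl4. Dkk3 had r = 0.834 with an adjusted p of 0.0192 by exact permutation, but r was 0.324 without 2 libraries, so that relation rested on them. Kcnj3 and Nppa, a natriuretic peptide that ventricles also make under stress, gave adjusted p of 0.547 and 0.859 by exact permutation. For Kcnj3 r was 0.322 over 8 libraries and 0.976 without antimiR-195 replicates 2 and 3. The atrial gene Bmp10 was at 0 counts in all 8 libraries. Whether atrial tissue was present in some samples was not tested beyond these genes.

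**Figure D5:**
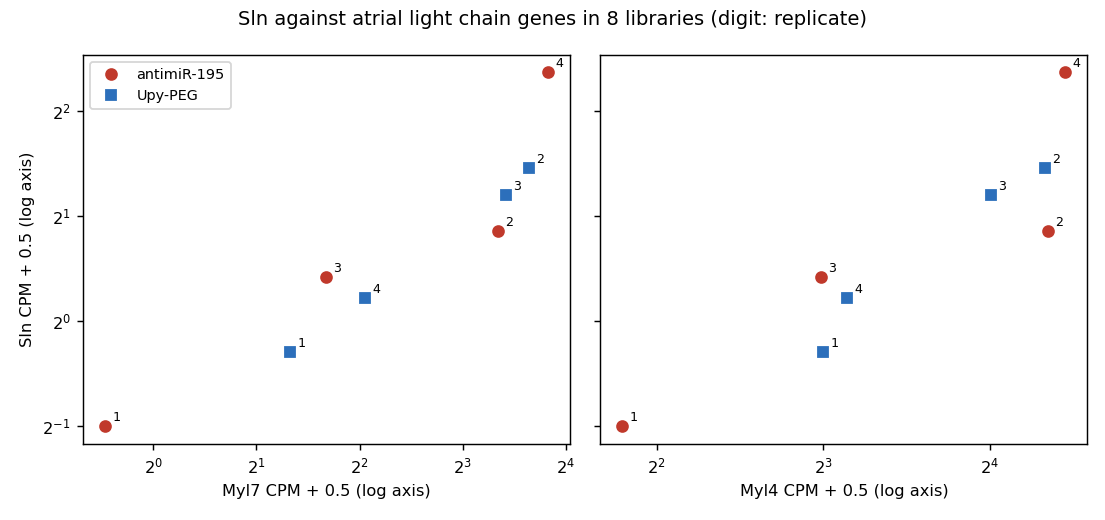
Sln (vertical axis) against Myl7 and Myl4 (horizontal axes) in CPM + 0.5 on log axes, with antimiR-195 as red circles, Upy-PEG as blue squares and digits for replicates. The libraries of both groups lie along 1 rising band, from antimiR-195 replicate 1 with 0 Sln counts to antimiR-195 replicate 4 with 82.

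Genes of 7 further lists, which hold the partners and regulators of these proteins, were not called in either direction (0 in each list), as in the table as a whole. Among 14 genes of the release complex and the store's lumen, 7 were positive and 7 negative with a median log2 fold change of 0.02. Calr, the calcium-binding chaperone calreticulin, was at 404 ± 151 CPM in antimiR-195 and 316 ± 32.4 CPM in Upy-PEG, with 627 CPM in antimiR-195 replicate 2. Its log2 fold change was 0.35 ± 0.22, and 0.05 ± 0.11 without that library. Tmem38b, a counter-ion channel of the store, was at -0.23 ± 0.16, and at -0.12 ± 0.12 without it. Jsrp1, a junctional protein, was low in all libraries at 0.965 ± 0.687 CPM in antimiR-195 and 0.652 ± 0.241 CPM in Upy-PEG, with a log2 fold change of 0.58 ± 0.47, and -0.05 ± 0.38 without antimiR-195 replicate 2.

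Among 12 tested regulators of the pump, kinases and phosphatases, 5 were positive and 7 negative, with a median of -0.01. Hax1, a partner of phospholamban, was at 0.16 ± 0.13, Ppp1ca, a catalytic subunit of the phosphatase that acts on phospholamban, at 0.10 ± 0.13, and the glycogen-targeting subunit Ppp1r3a at -0.23 ± 0.26. Without antimiR-195 replicate 2 Hax1 was at 0.06 ± 0.11, Ppp1ca at -0.000381 and Ppp1r3a at -0.00685. For 7 subunits and regulators of the L-type channel the median was 0.05. Rrad, a small G protein that inhibits the channel, had the smallest p and was at 0.29 ± 0.26, and at -0.09 ± 0.13 without antimiR-195 replicate 2. Rrad had 488 CPM in antimiR-195 replicate 2 and 189 to 278 CPM in the other 7 libraries. Cacna2d1, an accessory subunit of the channel, was at 0.11 ± 0.20, and Gem, another inhibitory G protein, at -0.11 ± 0.29. Without that library they were at 0.26 ± 0.15 and 0.10 ± 0.22.

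Of 7 genes of the dyad and T-tubule, the median was 0.09. The membrane repair gene Dysf was at 0.21 ± 0.11, with 103 ± 6.26 CPM in antimiR-195 and 89.5 ± 8.05 CPM in Upy-PEG. Bin1, which shapes T-tubules, was at 0.43 ± 0.29 and had 59.5 CPM in antimiR-195 replicate 2, against 21.1 to 29.9 CPM in the other libraries, and Jph1 was at -0.22 ± 0.25. Without antimiR-195 replicate 2 Bin1 was at -0.01 ± 0.14 and Jph1 at -0.00181. The 9 genes of plasma membrane and mitochondrial calcium transport had a median of 0.06. Mcub, a subunit that restrains the mitochondrial uniporter, was at 0.30 ± 0.21, with Letm1 at 0.06 ± 0.10 and the mitochondrial exchanger Slc8b1 at 0.07 ± 0.12. Mcub was at 0.09 ± 0.17 without antimiR-195 replicate 2.

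The 10 tested paralogs and IP3 receptors had a median of 0.04. Slc8a2, a further sodium-calcium exchanger, was at 0.828 ± 0.176 CPM in antimiR-195 and 1.31 ± 0.281 CPM in Upy-PEG, and edgeR gave an unadjusted p of 0.0334 and an adjusted p of 0.9999. Its log2 fold change was -0.66 ± 0.27, and -0.54 ± 0.28 without antimiR-195 replicate 2. Ryr3 was at 0.69 ± 0.33, and at 0.84 ± 0.32 without that library, with 1.79, 0.929, 2.09 and 0.854 CPM in antimiR-195 and 0.845, 0.879, 0.830 and 0.943 CPM in Upy-PEG. Casq1, the skeletal calsequestrin, was at 0.34 ± 0.25, and at 0.07 ± 0.19 without antimiR-195 replicate 2. The 7 genes of beta-adrenergic input had a median of -0.06, with the receptor Adrb1 at -0.22 ± 0.16, Gnas at -0.19 ± 0.16 and the kinase Grk5 at 0.19 ± 0.17. Without antimiR-195 replicate 2 Adrb1 was at -0.10 ± 0.12 and Gnas at -0.07 ± 0.11.

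The label of heart muscle was checked with 12 sarcomere genes, which were abundant in all 8 libraries. Their summed CPM was 75193 to 100289 in antimiR-195 and 74821 to 92601 in Upy-PEG. It was highest in antimiR-195 replicate 2, in which the summed CPM of the 9 calcium genes was lowest, at 12584 against 18109 to 22057 in the other 7 libraries. That library also had the lowest length slope, -0.22, and the part of the length trend in either sum was not tested. The sarcomere genes did not move as one: 7 of the 12 were highest in that library and 3 were lowest. The troponin gene Tnnc1 had 5365 CPM there and 2010 to 3099 CPM in the other libraries. The giant filament gene Ttn had 1884 CPM there and 2720 to 3991 CPM in the others, and the myosin gene Myh6 and the actinin gene Actn2 were also lowest there. Ttn, Myh6 and Actn2 were named after their values were seen. With the sarcomere sum as a covariate the fold changes of the 9 genes lay between -0.15 and 0.41 and 0 were called.

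Among other cell types, summed fibroblast and matrix markers were 6403 to 8583 CPM in antimiR-195 and 4475 to 8443 CPM in Upy-PEG. Macrophage markers were 1191 to 1911 CPM in antimiR-195 and 1383 to 1903 CPM in Upy-PEG. Endothelial markers were 580.2 to 724 CPM in antimiR-195 and 596 to 738 CPM in Upy-PEG, and skeletal muscle markers 5.26 to 16.6 CPM in antimiR-195 and 6.73 to 9.04 CPM in Upy-PEG. Smooth muscle markers, which matter because vessel walls also express Cacna1c and Slc8a1, were 451 to 879 CPM in antimiR-195 and 373 to 489 CPM in Upy-PEG. Acta2, which had the smallest p of the 5, was at 0.53 ± 0.29, and at 0.11 ± 0.14 without antimiR-195 replicate 2. In that library the smooth muscle sum was highest, with 4 of the 5 genes at their highest, and both Cacna1c and Slc8a1 were lowest. The smooth muscle myosin gene Myh11, named after its values were seen, was lowest there as well, at 20.6 CPM against 22.95 to 31.5 CPM in the other libraries. The part of smooth muscle in the levels of Cacna1c and Slc8a1 was not tested.

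The genes in most constant proportion to Atp2a2, Pln and Ryr2 were taken from 7267 well-expressed genes. For Atp2a2 they were the lipoprotein receptor gene Vldlr, Adhfe1 and Abhd18, whose log2 ratio to it had an SD of 0.03, 0.06 and 0.06 over 8 libraries, against a median of 0.33 for all genes. For Pln they were the oxygen sensor gene Egln1, Nipsnap2 and Msantd4, each at an SD of 0.05, against a median of 0.25. For Ryr2 they were Ppp1r12a, the cardiac transcription factor gene Tbx20, and Vps13c, at 0.04, 0.08 and 0.08, against a median of 0.50. Like Ryr2, they were lowest in antimiR-195 replicate 2 and highest in antimiR-195 replicate 3. Those libraries had the lowest and the highest length slope. The part of that slope in these proportions was not tested. Each gene named is among the closest of 7267, so SDs far below the median follow from the selection. Vldlr had 216, 138, 285 and 252 CPM in antimiR-195 and 249, 263, 238 and 222 CPM in Upy-PEG, and thus the low value in antimiR-195 replicate 2 that Atp2a2 has. None of these well-expressed genes came near Sln: the closest, Lrrc4b, Ackr3 and Mtss1, had an SD of 1.43 to 1.45, against a median of 1.70. The search left out genes with a mean log2 CPM below 4. Myl7 and Myl4, which moved with Sln as described above, were among those left out.

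The promoters of Slc8a1, the most variable of the 8 members detected in every library, and of the steadier Pln are shown for comparison (RefSeq, GRCm38.p6, 250 bases before to 50 after the gene's start, gene strand). Slc8a1 followed the length slope of the libraries, as described above. Whether promoter words bear on the spread of either gene was not tested. The capitals mark matches, on either strand, to TATAAA (the TATA word), GGGCGG (the Sp1 box), CATTCC (bound by TEAD factors), AGATAA (bound by GATA factors), CAGCTG (an E-box) and the MEF2 and CArG consensus words. The first sequence lies at chr17:81738338-81738637 on the minus strand and the second at chr10:53337436-53337735 on the plus strand.
Slc8a1: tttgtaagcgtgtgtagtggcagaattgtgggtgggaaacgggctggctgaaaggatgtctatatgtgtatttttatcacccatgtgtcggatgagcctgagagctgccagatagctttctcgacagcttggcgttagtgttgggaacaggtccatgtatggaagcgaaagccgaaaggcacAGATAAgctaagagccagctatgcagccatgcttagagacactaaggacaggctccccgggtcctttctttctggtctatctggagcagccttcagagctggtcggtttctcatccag
Pln: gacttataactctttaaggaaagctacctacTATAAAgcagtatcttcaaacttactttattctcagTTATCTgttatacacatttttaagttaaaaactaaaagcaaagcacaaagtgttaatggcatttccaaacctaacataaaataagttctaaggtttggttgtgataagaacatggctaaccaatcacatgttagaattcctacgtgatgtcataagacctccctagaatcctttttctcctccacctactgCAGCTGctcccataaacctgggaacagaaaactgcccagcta
The Slc8a1 window held 1 of these words, the GATA word, which 11.2% of 32851 promoter windows of the same length hold. The Pln window held that word too, as well as the TATA word (13.6% of windows), which lies near the far 5′ end of the window and away from the start, and the E-box word (16.3%), with no overlap between them. Windows of 6 members were searched, and those of Atp2a2, Sln and Trdn were not analysed here. The Sp1 box (35.7%) was in windows of Cacna1c, Jph2 and Ryr2, and the MEF2 consensus (3.19%) in that of Casq2. The E-box word was also in windows of Jph2 and Cacna1c, for Cacna1c in a different window from the Sp1 box. Cacna1c had several windows and Jph2 overlapping ones, whereas the percentages are per window. The TEAD word (14.7%) and the CArG box (1.63%) were in no window of the 6.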

How the data were processed

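Per the labels' protocols, RNA was extracted in TRIzol and sequenced after a stranded mRNA preparation. STAR, HTSeq and DESeq, with genome build GRCm38, are named in the submitters' processing notes. Their versions, the annotation release and the strand setting are not given in the sources used. Deposited values were whole-number counts per Ensembl gene from HTSeq, identical in the series table and the library files (0 differing cells), and RPKM values computed by the authors, whose implied gene length was the same in all libraries. Of 38293 identifiers, 36345 had a symbol in the gene name table used here. HTSeq summary lines did not enter library sizes; reads without a feature were 3.33% to 4.35% of all lines and ambiguous reads 0.445% to 0.547%.

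Counts were filtered with filterByExpr, scaled with TMM (factors 0.953 to 1.04) and tested with edgeR 4.0.16 (quasi-likelihood, two-sided, Benjamini-Hochberg over 13972 genes, threshold 0.05) in R 4.3.3, with 4 against 4 libraries and no covariate; the script was tested on simulated data. SE was derived from the fold change and F statistic, and intervals cover 95%. The biological coefficient of variation was 19.1%. Ratios used RPKM and exact permutation tests. DESeq2 1.42.0, limma 3.58.1, other scalings, no filter, RPKM pseudocounts of 0.1 and 1, a sarcomere covariate, removal of the length trend and leaving out each library were alternatives. The 9 members and the lists were chosen with earlier results of these data known. Besides the members, the 3 genes of each list with the smallest p, where named, and the 3 nearest in proportion to Atp2a2, Pln, Ryr2 and Sln follow a fixed rule; Strit1, 1 of 13 listed pump regulators, was not matched to an identifier and is not analysed here. Genes with near-identical copies, and overlapping or antisense genes, are uncertain. Replicates were numbered in accession order and pair nothing.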

Additional observations from a re-analysis of the deposited data

Results flagged for a closer look

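Pln in antimiR-195 replicate 2, at 4583 CPM, lay far from the other 3 antimiR-195 libraries, which had 6168 to 6434 CPM. The gap to the nearest of them was 0.856 of the group's whole range, more than Dixon's 95% limit allows for 4 values. It was the only such value among 32 groups of 4, the CPM of the 9 genes and the 7 ratios in each treatment, and chance flags about 1 in 20 groups. The same library had the steepest loss of long transcripts, a slope of -0.22, the highest sarcomere sum and the highest share of reads aligned to more than 1 place, and their part in this value was not tested.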

How the results depend on the processing

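Under all 18 alternatives 0 genes of the table and 0 of the 9 members were called, and the smallest adjusted p of any member was 0.892. Jph2, Pln and Trdn kept their direction under every alternative run. The other 6 members reversed under at least 1 alternative, among them Sln, which had the largest fold change of the 9 (0.42), and the cause was not tested. With limma-voom the log2 fold changes were -0.0788 for Ryr2, -0.715 for Sln, -0.213 for Slc8a1 and -0.0585 for Cacna1c. With limma on log2(RPKM + 0.1) they were -0.0523 for Ryr2, -0.464 for Sln, -0.181 for Slc8a1 and -0.0315 for Cacna1c, and on log2(RPKM + 1) -0.0498 for Ryr2, -0.156 for Slc8a1 and -0.0270 for Cacna1c. With the length trend removed Ryr2 was at -0.0101, Cacna1c at -0.00648 and the ratio of Casq2 to Ryr2 at -0.0156. The same step without antimiR-195 replicate 2, a combination chosen after seeing the data, put Atp2a2 at 0.0150 and Casq2 at 0.0272. As differences of medians, the log2 ratios were 0.17 for Sln to Atp2a2, 0.0211 for Slc8a1 to Atp2a2 and 0.10 for Jph2 to Ryr2.

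Leaving out 1 library at a time, the log2 fold change ranged from -0.27 to 0.24 for Ryr2, -0.22 to 0.0518 for Atp2a2, -0.10 to 0.0194 for Casq2, -0.39 to 0.38 for Slc8a1, -0.21 to 0.19 for Cacna1c and -0.82 to 0.85 for Sln. The log2 ratio differences ranged from -0.11 to 0.0548 for Pln to Atp2a2, -1.39 to 0.98 for Sln to Atp2a2, -0.33 to 0.28 for Slc8a1 to Atp2a2, -0.19 to 0.25 for Casq2 to Ryr2, -0.0846 to 0.52 for Trdn to Ryr2, -0.23 to 0.12 for Jph2 to Ryr2 and -0.0426 to 0.0766 for Cacna1c to Ryr2. Of the genes named from further lists, Bin1 was at -0.0112, Rrad at -0.0889, Jsrp1 at -0.0451, Gem at 0.0950 and Ppp1ca at -0.000381 without antimiR-195 replicate 2, an alternative chosen for them after seeing the data. Genes at an unadjusted p below 0.05 numbered 104 to 352 in these fits, 428 with no filter and 305 with the sarcomere covariate. No paired analysis was possible because the labels give no replicate numbers shared by the groups. The spread between the 4 libraries of a group sets the precision, for Sln too, whose biological coefficient of variation was 90.4%.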
